A study of Mus musculus with 12 samples.

Results

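The genes described here are the subunits of the lysosomal proton pump, the Ragulator complex, the core autophagy machinery and a few of their partners on the lysosome, measured in mouse CD8+ T cells expanded with or without dichloroacetate (DCA). They are the 58 genes whose symbol in the authors' comparison table, which lists 15067 genes, begins with Atp6v, Lamtor or Atg and a digit, together with Lamp1, Lamp2, Tfeb, Tfe3, Mcoln1, Sqstm1, the ATG8 genes Gabarap, Gabarapl1, Gabarapl2, Map1lc3a and Map1lc3b, and Ulk1, Ulk2, Becn1, Wipi1 and Wipi2. All 58 passed the filter on low counts and were tested.

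RNA of 12 bulk libraries was sequenced, in 4 groups of 3 libraries. Whole spleens from mice with a transgenic T cell receptor received the peptide of that receptor (1 uM gp100 or 250 nM SIINFEKL) for 24 hours, after which the cells grew for 6 days in IL-2 (50 ug/mL) and were sorted for CD8 on day 7. Each of 2 experiments used 3 mice, and each mouse gave 1 library grown in 5 mM DCA, which blocks pyruvate dehydrogenase kinases and so keeps pyruvate dehydrogenase active, and 1 untreated library. The strain and genotype tags give Pmel-1 (the transgene Tg(TcraTcrb)8Rest/J on B6.Cg-Thy1a/Cy), whose receptor recognises the melanoma antigen gp100, for experiment 2, and OT-1 (C57BL/6-Tg(TcraTcrb)1100Mjb/J), whose receptor recognises the ovalbumin peptide SIINFEKL, for experiment 1, whereas the titles of all libraries name Pmel-1. The labels also name technical batches, so strain, batch and experiment cannot be told apart. The groups are DCA and untreated in experiment 2, and DCA and untreated in experiment 1, and values of a group are listed for mouse 1, 2 and 3.

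The vacuolar ATPase pumps protons into lysosomes and endosomes. Its peripheral V1 sector hydrolyses ATP and its membrane V0 sector passes the protons, and V1 can detach from V0 and return. Ragulator, a complex of the LAMTOR proteins, anchors the Rag GTPases on the lysosome, binds the proton pump and lets amino acids switch on the growth kinase complex mTORC1. In autophagy, the ULK kinase complex and a BECN1-containing lipid kinase complex start a membrane sac, ATG9 and ATG2 supply lipid, and a conjugation cascade attaches ATG8 proteins to the membrane, which then closes and fuses with the lysosome. CD8+ T cells need autophagy to form memory cells. TFEB and TFE3 are transcription factors that switch on lysosome and autophagy genes.

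Library totals ran from 28039700 to 41051100 counts (6 digits kept), with 23635 to 26571 detected genes in libraries of experiment 2 and 18382 to 19551 in those of experiment 1. Counts of the 58 genes made up 0.42% to 0.449% of a library in experiment 2 and 0.532% to 0.583% in experiment 1. Levels are CPM, counts relative to the library total after TMM scaling, and between genes they are compared per kb of the deposited gene length. The 5 CD8 T cell markers together reached 2900 to 3780 CPM in every group, and Cd4 stayed at or below 0.701 CPM. Of the B cell markers, Ighm lay between 267 and 467 CPM and Cd79b between 15 and 41.9 CPM, while Ms4a1 did not exceed 0.0303 CPM. The 10 macrophage and monocyte markers summed to 14.4 to 17.2 CPM with DCA and 7.18 to 15.6 CPM untreated in experiment 2, and to 12.1 to 33.4 CPM with DCA and 9.4 to 13.3 CPM untreated in experiment 1. Most of that was Cd68 (6.7 to 29.9 CPM), whose product is itself a lysosomal membrane protein. Cd14 averaged 1.09 CPM with DCA and 0.247 CPM untreated in experiment 2, and 2.44 and 1.64 CPM in experiment 1. For Mrc1 the means were 0.417 and 0.14 CPM in experiment 2, and 0.012 and 0.013 CPM in experiment 1. Itgam and Lyz2 averaged 0.132 and 0.137 CPM with DCA and 0 untreated in experiment 2. C1qa was at 0 in every library, and Csf1r, Adgre1 and Marco did not exceed 0.0554 CPM. In bulk RNA, fewer cells of a type and less RNA per cell cannot be told apart.

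TFEB and TFE3 bind CLEAR elements, which hold the palindrome CACGTG, so the promoters were searched for it to place the genes among known lysosomal targets. RefSeq promoters (build GRCm38.p6, 250 bases before to 50 after the start, 300 in all) were found for 45 of the 58 genes, with 53 promoters among them. CACGTG, which reads the same on both strands, was present in 12 of the 53 (22.6%), against 7.15% of all 32851 promoters in the table. The longer palindrome TCACGTGA, which contains CACGTG, was present in 5 (9.43%), against 0.974% of all. The 12 genes were Atp6v1a, Atp6v0b, Atp6v0d1, Atp6v0e, Lamtor1, Lamtor4, Atg3, Atg5, Atg7, Atg14, Lamp1 and Mcoln1. Shown are 4 promoters, written 5′ to 3′ with CACGTG in capitals, those of Lamp1, which holds the most copies, of the lysosomal calcium channel gene Mcoln1, and of Atg3 and Lamtor4, which were both lower with DCA.
Lamp1 (chr8:13158911-13159210, plus strand): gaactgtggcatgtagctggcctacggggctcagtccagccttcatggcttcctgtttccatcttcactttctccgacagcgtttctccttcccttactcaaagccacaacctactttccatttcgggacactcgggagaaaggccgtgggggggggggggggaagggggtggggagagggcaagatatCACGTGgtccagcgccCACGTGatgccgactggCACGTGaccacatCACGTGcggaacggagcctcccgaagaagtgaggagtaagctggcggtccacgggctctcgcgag
Mcoln1 (chr8:3500269-3500568, plus strand): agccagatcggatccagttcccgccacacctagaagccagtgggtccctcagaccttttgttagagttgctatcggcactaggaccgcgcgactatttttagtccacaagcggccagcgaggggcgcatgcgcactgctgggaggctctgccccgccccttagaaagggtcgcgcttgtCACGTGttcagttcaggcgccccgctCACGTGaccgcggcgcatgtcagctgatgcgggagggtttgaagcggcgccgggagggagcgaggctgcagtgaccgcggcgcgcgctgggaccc
Atg3 (chr16:45158579-45158878, plus strand): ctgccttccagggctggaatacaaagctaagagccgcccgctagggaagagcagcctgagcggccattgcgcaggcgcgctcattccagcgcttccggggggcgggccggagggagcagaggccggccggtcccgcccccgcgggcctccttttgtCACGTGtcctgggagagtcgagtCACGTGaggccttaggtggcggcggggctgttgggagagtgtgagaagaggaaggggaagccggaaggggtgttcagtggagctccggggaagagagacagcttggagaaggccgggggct
Lamtor4 (chr5:138255232-138255531, plus strand): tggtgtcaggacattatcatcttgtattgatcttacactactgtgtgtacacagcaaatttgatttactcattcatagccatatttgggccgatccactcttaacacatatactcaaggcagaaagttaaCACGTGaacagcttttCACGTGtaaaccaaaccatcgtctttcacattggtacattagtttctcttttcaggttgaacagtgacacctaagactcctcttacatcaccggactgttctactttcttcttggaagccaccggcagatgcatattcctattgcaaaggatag
The 4 copies in Lamp1 begin at bases -61, -45, -28 and -15 from the start, the pair in Mcoln1 at -71 and -45, the pair in Atg3 at -94 and -71, and the pair in Lamtor4 at -120 and -104. A match is a stretch of letters and not a measured binding site. Of the 12 genes with a copy, Atg3, Atg7 and Lamtor4 were called for DCA over untreated, all 3 lower, beside 16.8% of all genes called (9.8% lower). Among the 58 genes as a whole, 15 were called (25.9%), 9 of them lower. Whether a copy goes with the change was not tested. The call of Atg7 was lost in 12 of 19 alternatives and that of Lamtor4 in 2.

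The spread of levels across the set was wide. Per kb, averaged over all libraries, the highest were the V1 stalk gene Atp6v1g1 (433.4 CPM per kb), Atp6v1f (358.0), Lamtor5 (353.5), Lamtor2 (180.0) and the small V0 gene Atp6v0e (169.7). At the low end were Atp6v1g3 (0.143 CPM per kb) and Atp6v0d2 (0.149), whose products are subunit isoforms of other tissues. The mean exceeded 100 CPM in all 4 groups for 12 of the 58 genes and was under 1 CPM in all 4 groups for 4, namely Atp6v1g3, Atp6v0d2 and the pseudogenes Atg4a-ps and Atp6v0c-ps2.

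DCA over untreated asks which of these genes moved when the cells were expanded with the drug. Over both experiments together, in a fit that takes out the mean difference between them, 15 of the 58 were called by edgeR's quasi-likelihood test (Benjamini-Hochberg adjusted p under 0.05 over 15688 genes), 6 higher and 9 lower with DCA. This is 25.9% of the set, against 16.8% of all tested genes called (7.01% higher and 9.8% lower). The falls lay in 4 proton pump subunits, 2 Ragulator subunits, the conjugation enzymes Atg3 and Atg7 and the protease Atg4b. The rises were in the ATG8 genes Map1lc3a and Gabarapl2, the protease Atg4c, the kinase Ulk2, Atg16l2 and the lysosomal membrane gene Lamp2. The median log2 fold change of the 58 was -0.115, and that of all tested genes was -0.02. The sign was the same in both experiments for all 15, and in 6 of 6 mice for 12 of them. The 15 were picked by a test over these same libraries, so like signs are largely built in and are no separate replication. Scaling by cyclic loess, which levels the libraries along the range of expression, gave 10 higher and 7 lower of 17, and 12 of the 15 genes were among them. Over all genes, cyclic loess called 2272, against 2638 in the TMM-scaled fit. In the authors' deposited table, 8 of the 58 had a false discovery rate under 0.05, 2 higher and 6 lower, against 10.5% of all genes in that table (5.12% higher, 5.42% lower), and all 8 were called in the same direction here.

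**Figure D1:**
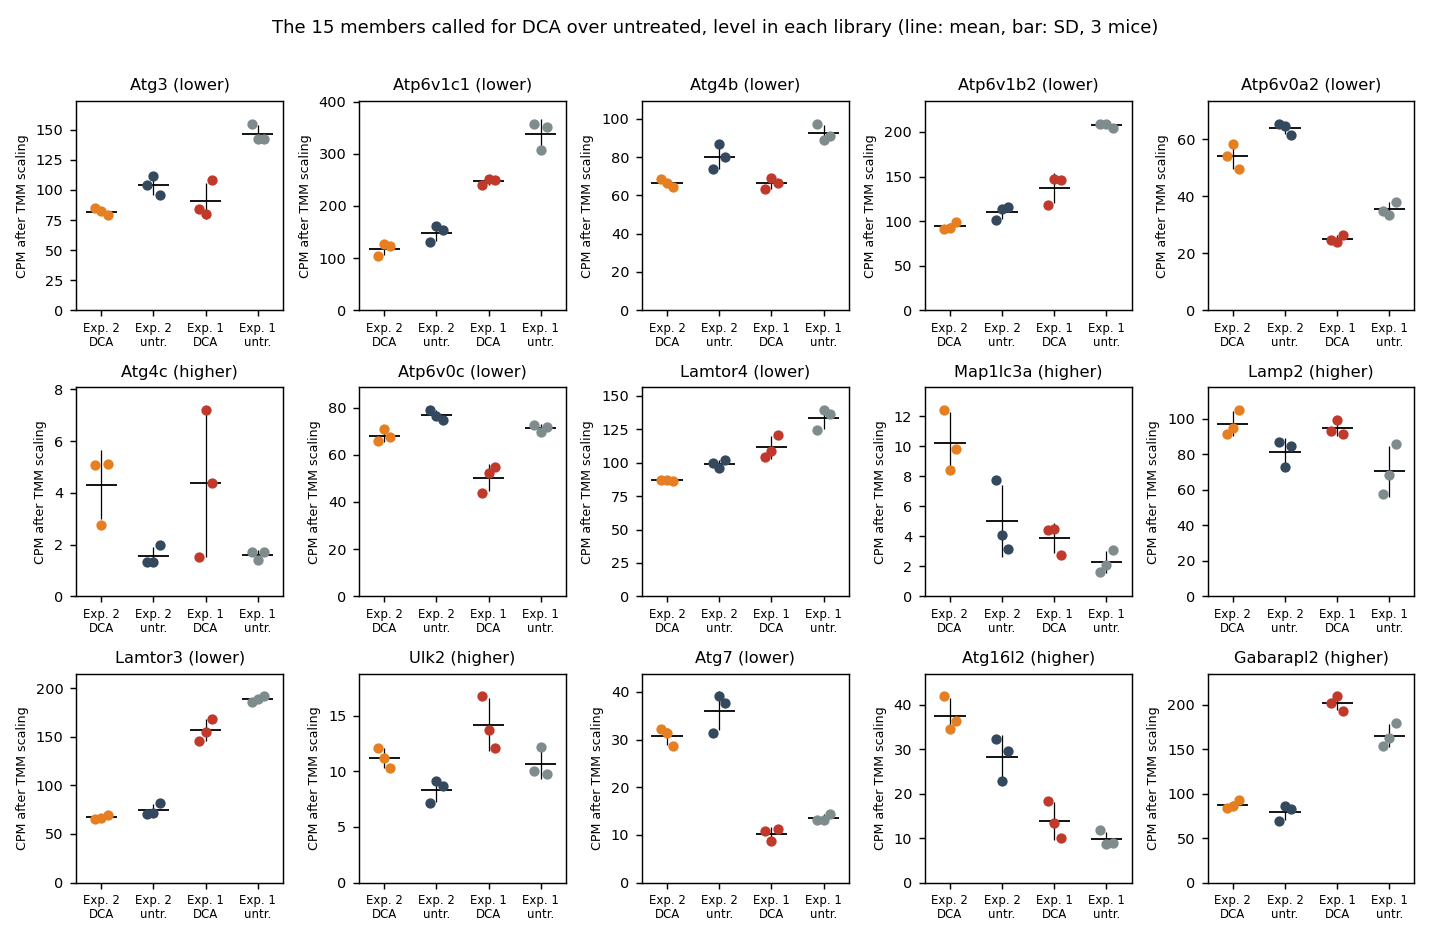
Level of each of the 15 called genes in CPM after TMM scaling (y axis, from 0) in the DCA and untreated libraries of experiment 2 and then experiment 1 (points: 3 mice, line: mean, bar: SD). Atg3, Atp6v1c1, Atg4b and Atp6v1b2 were lower in every DCA library than in every untreated library of the same experiment, and Lamp2 was higher in every DCA library.

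Counts by role for DCA over untreated, here and below, stand beside 16.8% of all genes called (7.01% higher, 9.8% lower). They rest on few genes and were not tested as shares. In the V1 sector, 2 of 10 genes fell (20%) and none rose, with a median log2 fold change of -0.14. Under cyclic loess Atp6v1d was called higher (0.22, adjusted p = 0.0448 by limma). Atp6v1c1, the subunit C gene whose product holds V1 to V0 and lets go of it when the pump disassembles, had 103, 127 and 123 CPM in DCA libraries of experiment 2, against 131, 161 and 154 CPM in untreated ones. Experiment 1 gave 240, 252 and 251 CPM with DCA, against 358, 307 and 351 CPM untreated. The groups did not overlap in either experiment, and the log2 fold change was -0.40 (SE 0.0693, edgeR adjusted p = 0.00171, lower in 6 of 6 mice). Atp6v1b2, one of the catalytic-head subunits, had 91.1, 92.5 and 98.9 CPM in DCA libraries of experiment 2, against 101, 114 and 116 CPM untreated. Experiment 1 gave 118, 147 and 146 CPM with DCA, against 209, 209 and 205 CPM untreated. Here too the DCA libraries lay below all untreated ones of their experiment (log2 fold change -0.41, SE 0.0806, edgeR adjusted p = 0.00317).

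The other V1 genes did not pass. Atp6v1a, the catalytic subunit A that pairs with Atp6v1b2 in the head, had 47, 61.5 and 49.5 CPM with DCA and 66.2, 58.6 and 60.1 CPM untreated in experiment 2. In experiment 1 it had 43.9, 35.5 and 36 CPM with DCA and 35.9, 35.6 and 37.2 CPM untreated. The groups overlapped in both experiments (log2 fold change -0.07, edgeR adjusted p = 0.665). For the regulatory subunit H gene Atp6v1h the log2 fold change was -0.16 (adjusted p = 0.105) and for Atp6v1g1 -0.13 (adjusted p = 0.0809). Log2 fold changes of Atp6v1d, Atp6v1e1 and Atp6v1f lay between -0.07 and 0.09. Atp6v1g2 and Atp6v1g3, isoforms of the G subunit, made up at most 0.318% and 0.0548% of the G genes per kb, and the rest was Atp6v1g1.

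In the V0 sector, 2 of 7 genes fell and none rose. Atp6v0a2, a proton-channel subunit isoform first known from the Golgi and endosomes, had 54.3, 58.5 and 49.6 CPM in DCA libraries of experiment 2, against 65.5, 64.5 and 61.5 CPM in untreated ones. Experiment 1 gave 24.8, 24 and 26.6 CPM with DCA, against 34.8, 33.3 and 38.1 CPM untreated. All DCA libraries were below all untreated libraries of their experiment (log2 fold change -0.36, SE 0.0772, edgeR adjusted p = 0.00507). Atp6v0c encodes the proteolipid that forms most of the proton-carrying ring. It had 65.7, 70.8 and 67.6 CPM with DCA and 79, 76.6 and 74.9 CPM untreated in experiment 2. Levels in experiment 1 were 43.7, 52.2 and 54.9 CPM with DCA and 72.6, 69.4 and 71.7 CPM untreated. Its groups were apart in both experiments (log2 fold change -0.34, SE 0.0783, edgeR adjusted p = 0.00856).

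The pseudogene Atp6v0c-ps2, whose reads could be shared with Atp6v0c, had a mean under 1 CPM in every group, and how such reads were counted was not given, so Atp6v0c is uncertain in that respect. Atp6v0a1, the other a-subunit gene in the set, contributed 11.1% of the a1 and a2 level per kb with DCA and 11.7% untreated in experiment 2, and 23.7% with DCA and 23.9% untreated in experiment 1. Its log2 fold change was -0.41 (SE 0.175, edgeR adjusted p = 0.126), as large as that of the called subunits with a wider error. Tcirg1, which encodes a further isoform of the a subunit, lies outside the set by its symbol and is not part of these shares. Over both experiments Tcirg1 had a mean of 20.8 CPM with DCA and 18.8 CPM untreated (log2 fold change 0.19, edgeR adjusted p = 0.394). The means of Atp6v0a1 were 7.11 and 9.53 CPM. Atp6v0d1, the d subunit that T cells use, was level (log2 fold change 0.02, adjusted p = 0.896). Atp6v0d2, the d isoform known from osteoclasts and macrophages, had 0.735, 0.498 and 0.453 CPM with DCA and 0, 0.0909 and 0.182 CPM untreated in experiment 2, where the floor of 3 counts stood at 0.0868 to 0.103 CPM. The DCA libraries of experiment 2 were all above the untreated ones. Its levels in experiment 1 were 1.45, 0.358 and 0 CPM with DCA and 1.05, 0 and 0.0353 CPM untreated, so its groups overlapped there, and it was not called (adjusted p = 0.335). The part of the macrophage marker sums given above in the values of Atp6v0d2 was not tested.

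Of the 5 Ragulator genes, 2 fell and none rose. Lamtor4, a subunit of the roadblock-domain core, had 87.1, 87.1 and 86.6 CPM in DCA libraries of experiment 2, against 100.2, 96.2 and 102 CPM in untreated ones. Experiment 1 gave 104, 109 and 121 CPM with DCA, against 124, 140 and 136 CPM untreated. The groups did not overlap (log2 fold change -0.23, SE 0.0568, edgeR adjusted p = 0.0132). Lamtor3, also known as MP1, had 65.1, 66.4 and 69.9 CPM with DCA and 70.3, 71.4 and 82.2 CPM untreated in experiment 2. For experiment 1 the values were 146, 155 and 169 CPM with DCA and 186, 189 and 192 CPM untreated. These groups were also apart (log2 fold change -0.21, SE 0.0604, edgeR adjusted p = 0.0246). The Lamtor3 call was lost with any of 7 of the 12 libraries left out (adjusted p 0.051 to 0.0584).

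Both calls were lost with no filter on low counts. They were also lost under cyclic loess, where the log2 fold changes were -0.12 for Lamtor4 (adjusted p = 0.159 by limma) and -0.11 for Lamtor3 (adjusted p = 0.238), and where Lamtor2 was called higher (0.23, adjusted p = 0.0201). Lamtor2 was higher in all 6 mice in the TMM-scaled fit but was not called there (log2 fold change 0.10, edgeR adjusted p = 0.289). Lamtor1, whose lipid anchors fix the complex to the lysosome, had a log2 fold change of -0.14 (adjusted p = 0.149) and Lamtor5 one of 0.00 (adjusted p = 0.995).

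**Figure D2:**
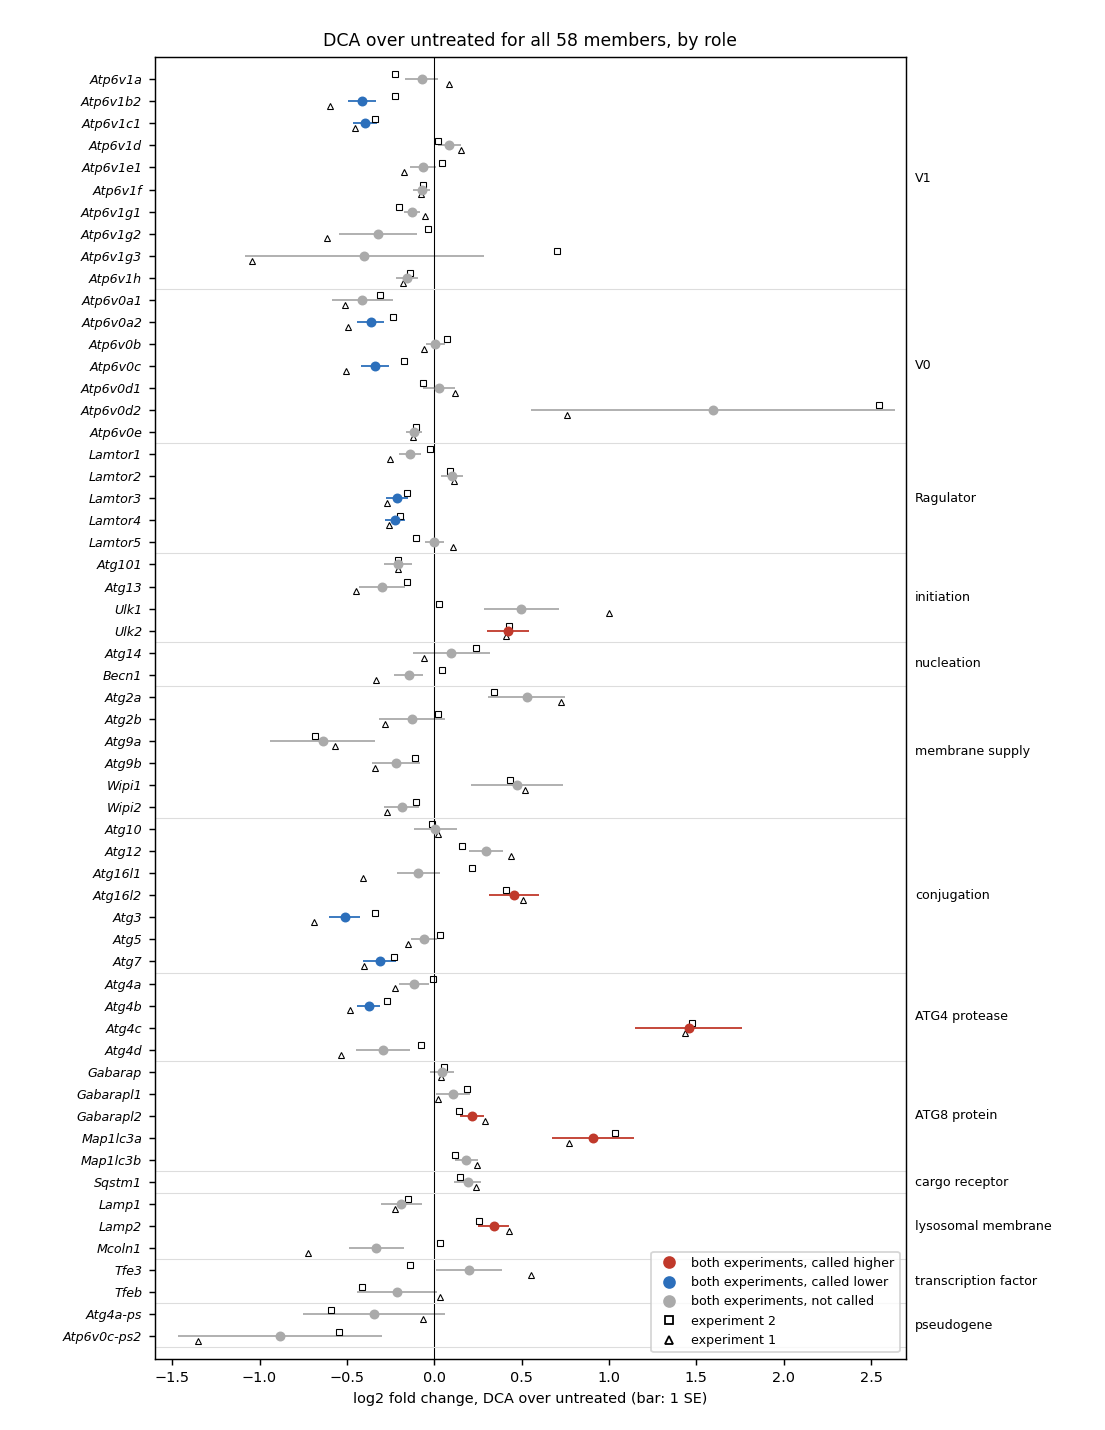
Log2 fold change of DCA over untreated (x axis) for each of the 58 genes, grouped by role (y axis), over both experiments (filled circle, bar: 1 SE) and in experiment 2 (square) and experiment 1 (triangle) alone, in red where called higher, blue where called lower and grey where not called. The 4 called proton pump genes and the 2 called Ragulator genes lie left of 0 in both experiments, and all 5 ATG8 genes lie right of 0.

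Among the 4 kinase-complex genes that start autophagy, Ulk2 rose. It had 12.1, 11.2 and 10.3 CPM in DCA libraries of experiment 2, against 7.12, 9.15 and 8.7 CPM in untreated ones. Experiment 1 gave 16.8, 13.7 and 12.1 CPM with DCA, against 9.99, 12.2 and 9.75 CPM untreated. The groups were apart in experiment 2 and overlapped in experiment 1 (log2 fold change 0.42, SE 0.12, edgeR adjusted p = 0.0259, higher in 6 of 6 mice). With a term per mouse its adjusted p was 0.0559, under cyclic loess 0.0579, and with any of 5 libraries left out 0.055 to 0.065. The Ulk2 call was also lost with no filter on low counts, and its adjusted p reached 0.0859 over the 19 alternatives. Ulk1, the other kinase, had 6.99, 7.53 and 8.01 CPM with DCA and 7.39, 8.76 and 5.94 CPM untreated in experiment 2. In experiment 1 it had 8.1, 5.63 and 4.33 CPM with DCA and 3.47, 3.19 and 2.37 CPM untreated. Its DCA libraries overlapped the untreated ones in experiment 2 and lay above them in experiment 1 (over both experiments 0.50, SE 0.215, adjusted p = 0.134). Atg13 and Atg101, the adaptors of the complex, had log2 fold changes of -0.30 and -0.21 (adjusted p = 0.144 and 0.101).

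Becn1 and Atg14, of the lipid kinase complex, were not called over both experiments (log2 fold changes -0.15 and 0.10, edgeR adjusted p = 0.265 and 0.822). Becn1 shares 43.9% of its exon bases with its neighbour Cntd1 in the GENCODE M21 annotation, and the kit does not mark strand, so its counts are uncertain. None of the 6 genes for membrane supply was called. The lipid scramblase gene Atg9a had 2.94, 2.27 and 2.17 CPM with DCA and 4.77, 3.88 and 3.19 CPM untreated in experiment 2, and under 1 CPM in every library of experiment 1 (log2 fold change -0.64, SE 0.301, adjusted p = 0.17). It shares 32.6% of its exon bases with Ankzf1. The lipid-transfer gene Atg2a and the membrane-binding Wipi1 had log2 fold changes of 0.53 (adjusted p = 0.116) and 0.47 (adjusted p = 0.253), and Wipi2 had -0.19 (adjusted p = 0.221).

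Of the 7 conjugation genes, 2 fell and 1 rose, and Atg3 had the smallest adjusted p of the set. Atg3, the E2-like enzyme that passes ATG8 proteins to the membrane lipid, had 84.6, 82.3 and 79.2 CPM in DCA libraries of experiment 2, against 104, 111 and 95.9 CPM in untreated ones. Experiment 1 gave 84.5, 80.3 and 108 CPM with DCA, against 155, 142 and 142 CPM untreated. DCA libraries were below all untreated ones in each experiment (log2 fold change -0.51, SE 0.0867, edgeR adjusted p = 0.00138). Atg7, the E1-like enzyme upstream of Atg3, had 32.1, 31.4 and 28.7 CPM with DCA and 31.4, 39.1 and 37.6 CPM untreated in experiment 2. Its levels in experiment 1 were 10.8, 8.71 and 11.3 CPM with DCA and 13.1, 13.1 and 14.4 CPM untreated. Its groups overlapped in experiment 2 and the fall was seen in 5 of 6 mice (log2 fold change -0.31, SE 0.0944, edgeR adjusted p = 0.0339). With a term per mouse the adjusted p was 0.0664, and with any of 10 libraries left out 0.0518 to 0.0924. The Atg7 call was also lost with no filter on low counts, and its adjusted p reached 0.12 over the 19 alternatives.

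Atg16l2 rose. It is a relative of Atg16l1, whose product places the conjugation complex on the membrane. It had 42, 34.5 and 36.2 CPM in DCA libraries of experiment 2, against 32.3, 22.9 and 29.6 CPM in untreated ones. Experiment 1 gave 18.4, 13.4 and 9.94 CPM with DCA, against 11.7, 8.7 and 8.97 CPM untreated. DCA was higher in 6 of 6 mice, with groups that overlapped in experiment 1 (log2 fold change 0.46, SE 0.142, edgeR adjusted p = 0.0377). The call was lost with any of 7 libraries left out (adjusted p 0.0553 to 0.095). Atg16l1 itself had a log2 fold change of -0.09 (adjusted p = 0.678), the ubiquitin-like Atg12 0.30 (adjusted p = 0.054) and its partner Atg5 -0.06 (adjusted p = 0.654). Atg12 was called under 5 other settings, among them cyclic loess (0.35, adjusted p = 0.0326 by limma) and DESeq2 (0.29, adjusted p = 0.0345).

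Of the 4 ATG4 proteases, which cut ATG8 precursors and release ATG8 from membranes, Atg4b fell, Atg4c rose and the others were not called. Atg4b, the most active of the 4 on LC3 in work on human cells, had 68.4, 66.5 and 64.2 CPM in DCA libraries of experiment 2, against 73.7, 86.6 and 80.1 CPM in untreated ones. Experiment 1 gave 63.5, 69.1 and 66.4 CPM with DCA, against 97.4, 89.1 and 91.1 CPM untreated. The groups did not overlap in either experiment (log2 fold change -0.38, SE 0.0664, edgeR adjusted p = 0.0018). Atg4c had 5.08, 2.77 and 5.11 CPM with DCA and 1.34, 1.33 and 1.97 CPM untreated in experiment 2. For experiment 1 the values were 1.53, 7.21 and 4.36 CPM with DCA and 1.72, 1.4 and 1.73 CPM untreated. Mouse 1 of experiment 1 showed no rise, and the other 5 mice did (log2 fold change 1.46, SE 0.308, edgeR adjusted p = 0.00507).

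Atg4c remained a small part of the family. It made up 4.77% of the ATG4 level per kb with DCA and 1.64% untreated in experiment 2, and 4.98% with DCA and 1.52% untreated in experiment 1. Atg4a, at 50.2% to 60% in the 4 groups, was the largest part, followed by Atg4b at 29.6% to 35.3%. Log2 fold changes were -0.12 for Atg4a (edgeR adjusted p = 0.409) and -0.29 for Atg4d (adjusted p = 0.222). Atg4d shares 19.3% of its exon bases with Kri1.

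All 5 ATG8 genes, whose products coat the autophagosome and bind cargo receptors, had positive log2 fold changes in each experiment, and 2 of them were called. Map1lc3a, which encodes LC3A, had 12.4, 8.42 and 9.85 CPM in DCA libraries of experiment 2, against 7.73, 4.12 and 3.17 CPM in untreated ones. Experiment 1 gave 4.43, 4.52 and 2.77 CPM with DCA, against 1.64, 2.12 and 3.11 CPM untreated. The rise was seen in 5 of 6 mice, and the groups overlapped in experiment 1 (log2 fold change 0.91, SE 0.237, edgeR adjusted p = 0.0165). Gabarapl2, also known as GATE-16, had 83.7, 86.3 and 92.5 CPM with DCA and 69.1, 86 and 82.6 CPM untreated in experiment 2. Levels in experiment 1 were 202, 210 and 194 CPM with DCA and 154, 163 and 180 CPM untreated. It was higher in 6 of 6 mice (log2 fold change 0.22, SE 0.0674, edgeR adjusted p = 0.0393). Its adjusted p was 0.0623 with a term per mouse, 0.0601 with RLE size factors and 0.0588 to 0.118 with any of 8 libraries left out. The Gabarapl2 call was also lost with no filter on low counts.

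Map1lc3b, which encodes the autophagy marker LC3B, had a log2 fold change of 0.18 (SE 0.0646, edgeR adjusted p = 0.0661) and was called under cyclic loess (0.32, adjusted p = 0.00639 by limma). Gabarap and Gabarapl1 had 0.04 (adjusted p = 0.729) and 0.10 (adjusted p = 0.52), and in experiment 1 alone only 0.036 and 0.023. Gabarapl1 shares 28.3% of its exon bases with the antisense gene 1700101I11Rik. The share of all genes that were positive in both experiments was not computed. Per kb, Map1lc3a was 4.69% of the ATG8 level with DCA and 2.5% untreated in experiment 2, and 1.47% with DCA and 0.979% untreated in experiment 1. Sqstm1, the cargo receptor p62 that binds ATG8 proteins, had 215, 194 and 188 CPM with DCA and 174, 167 and 199 CPM untreated in experiment 2. In experiment 1 it had 67.1, 83.7 and 67.5 CPM with DCA and 55.8, 63.2 and 66.1 CPM untreated. It was higher in 5 of 6 mice and not called (log2 fold change 0.19, SE 0.0752, adjusted p = 0.0995), but was called under cyclic loess (0.30, adjusted p = 0.0183 by limma). Sqstm1 shares 17.3% of its exon bases with Mrnip.

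**Figure D3:**
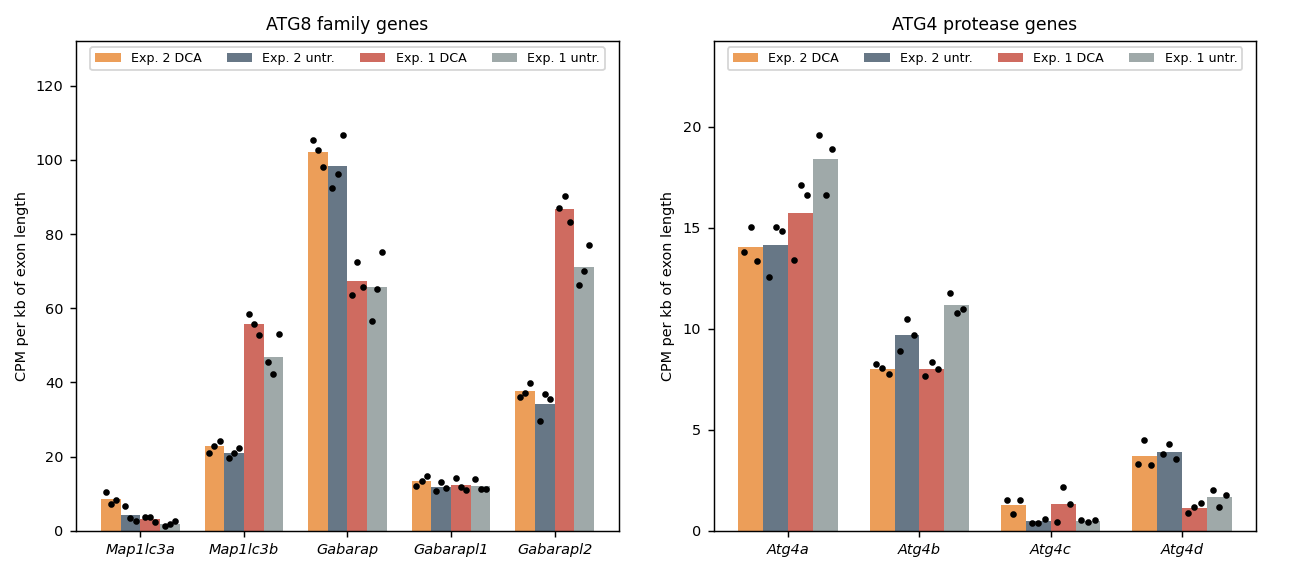
CPM per kb of exon length (y axis, from 0) of the 5 ATG8 genes (left) and the 4 ATG4 genes (right) in the 4 groups (bar: mean, points: 3 mice). Gabarap is the highest ATG8 gene in experiment 2 and Gabarapl2 in experiment 1, and Atg4c is higher with DCA than untreated in both experiments while Atg4b is lower.

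Of the 3 lysosomal membrane genes, Lamp2 rose. Its product is needed for autophagosomes to fuse with lysosomes and, in 1 splice form, for chaperone-mediated autophagy, forms that gene counts do not separate. It had 91.6, 94.8 and 105 CPM in DCA libraries of experiment 2, against 86.8, 72.5 and 84.8 CPM in untreated ones. Experiment 1 gave 92.9, 99.2 and 91.3 CPM with DCA, against 57.4, 68 and 85.5 CPM untreated. The DCA libraries lay above all untreated ones of their experiment (log2 fold change 0.34, SE 0.0904, edgeR adjusted p = 0.018). Lamp1, its close relative, had 15.2, 12.8 and 14.7 CPM with DCA and 17.2, 17.1 and 13.2 CPM untreated in experiment 2. For experiment 1 the values were 23.7, 17.1 and 24.8 CPM with DCA and 21.1, 27 and 28.4 CPM untreated. The groups overlapped (log2 fold change -0.19, SE 0.119, adjusted p = 0.32).

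Mcoln1, the calcium channel that activates calcineurin beside the lysosome, had 22.7, 27.3 and 28 CPM with DCA and 25, 24 and 27.4 CPM untreated in experiment 2. Levels in experiment 1 were 7.49, 9.64 and 6.9 CPM with DCA and 13.8, 10.2 and 15.8 CPM untreated, so its groups overlapped in experiment 2 and DCA lay below in experiment 1 (over both experiments -0.33, SE 0.157, adjusted p = 0.171). Neither transcription factor was called. Tfeb had 4.35, 4.65 and 3.3 CPM with DCA and 6.63, 5.12 and 4.62 CPM untreated in experiment 2. Its levels in experiment 1 were 0.726, 1.4 and 1.52 CPM with DCA and 1.56, 0.924 and 1.09 CPM untreated. The groups overlapped in both experiments (log2 fold change -0.21, SE 0.229, edgeR adjusted p = 0.598). Tfe3 had a log2 fold change of 0.20 (SE 0.189, adjusted p = 0.532).

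Within single experiments, calls were made in experiment 1 and none in experiment 2. In experiment 2 none of the 58 was called, where 4.57% of all genes were (2.37% higher, 2.2% lower). There 10 were under an unadjusted p of 0.05, DESeq2 called 7 (2 higher, 5 lower), limma on TMM-scaled values called 0, and the smallest edgeR adjusted p was that of Atp6v1c1 (0.0604). In experiment 1, 17 were called (29.3%), 5 higher and 12 lower, against 16.7% of all genes (5.67% higher, 11% lower). Cyclic loess gave 9 higher and 6 lower in experiment 1, and a filter at 5 CPM in 3 libraries 8 higher and 7 lower. Over all genes these 2 settings called 2096 and 2372 there, against 2622 in the TMM-scaled fit with the usual filter. The count of the 58 in experiment 1 was 9 without the DCA library of mouse 1 of that experiment, 10 without the untreated library of mouse 1 or of mouse 2, and 9 to 14 over all libraries left out in turn.

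Of the 17 genes called in experiment 1, 11 were among the 15 called over both experiments. The others were Lamtor1, Becn1, Atg16l1 and Mcoln1, lower, and Ulk1 and Atg12, higher. Of the 17 calls, 6 were kept in all 19 alternatives. The call of Atg16l1 was lost in 16 of them, that of Lamtor1 in 14, of Becn1 in 12 (all 3 under cyclic loess and the 5 CPM filter among others), of Atg12 in 4, of Ulk1 in 2 and of Mcoln1 in 0. Log2 fold changes in experiment 2 and then experiment 1 were 0.03 and 1.00 for Ulk1 (edgeR adjusted p = 0.976 and 0.0163), 0.03 and -0.72 for Mcoln1 (adjusted p = 0.962 and 0.0135) and 0.21 and -0.41 for Atg16l1 (adjusted p = 0.42 and 0.0467). For Becn1 they were 0.04 and -0.34 (adjusted p = 0.883 and 0.0263), for Lamtor1 -0.02 and -0.25 (adjusted p = 0.932 and 0.0316) and for Atg12 0.16 and 0.44 (adjusted p = 0.6 and 0.0356). The difference of the effects, experiment 2 minus experiment 1, was tested for every gene and called for none of the 58, against 0.331% of all genes (0.28% higher, 0.051% lower). It came to -0.97 for Ulk1 (SE 0.355, edgeR adjusted p = 0.221), 0.75 for Mcoln1 (SE 0.247, adjusted p = 0.179) and 0.62 for Atg16l1 (SE 0.184, adjusted p = 0.139, the smallest of the set). Of the 58 differences, 9 were under an unadjusted p of 0.05, and DESeq2 and limma called 0. That the DCA effect on these genes differs between the experiments is thus not shown, and neither is that it is alike.

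Other genes of the same pathways were taken from 5 lists, whose counts stand beside the 16.8% of all genes called (7.01% higher, 9.8% lower). Among 13 partners and assembly factors of the proton pump, which include the a-subunit gene Tcirg1 and the accessory-subunit gene Atp6ap1, 1 rose and 1 fell. They were Oxr1, whose yeast counterpart detaches V1 from V0 (log2 fold change 0.51, SE 0.118, edgeR adjusted p = 0.00882), and the assembly factor Vma21 (-0.22, SE 0.0535, adjusted p = 0.0124). Among 39 genes of mTORC1 and lysosomal nutrient sensing, 3 rose and 6 fell. Rheb, the GTPase that switches on mTORC1, fell by 0.37 on the log2 scale (SE 0.049, edgeR adjusted p = 0.000332). Sec13 and Itfg2, parts of the complexes that control the Rag GTPases, had -0.42 and -0.83 (adjusted p = 0.00112 and 0.00703). Rragd, a Rag GTPase and known TFEB target, rose by 1.17 (SE 0.298, adjusted p = 0.0141), Bmt2, a sensor of the methyl donor SAM, by 0.45 (adjusted p = 0.0152), and the lysosomal arginine sensor Slc38a9 by 0.50 (adjusted p = 0.0156). Under cyclic loess the call of Vma21 was lost (adjusted p = 0.147 by limma).

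Among 33 further autophagy genes, 4 rose and 3 fell. Trp53inp1, which binds ATG8 proteins, rose by 1.43 (SE 0.133, edgeR adjusted p = 3.12e-05), the mitophagy receptor Bnip3l by 0.47 (adjusted p = 0.0117) and the cargo receptor Tax1bp1 by 0.27 (adjusted p = 0.0186). Vmp1, a scramblase of the endoplasmic reticulum, had -0.23 (adjusted p = 0.00266), Rab7, the GTPase of late endosomes, -0.43 (adjusted p = 0.00348) and Tollip -0.39 (adjusted p = 0.00808). Among 49 lysosomal hydrolase and membrane genes, 7 rose and 2 fell. The cysteine proteases Ctsl and Ctss rose by 2.09 and 0.64 (adjusted p = 0.000186 for both) and the thioesterase Ppt1 by 0.47 (adjusted p = 0.000937), while the potassium and proton channel Tmem175 had -0.20 (adjusted p = 0.0444). Under cyclic loess Vmp1 and Tmem175 lost their calls (adjusted p = 0.172 and 0.168 by limma). Ctsl and Ctss are also abundant in macrophages, and the part of the macrophage markers given above in these rises was not tested. Among 8 regulators of TFEB and TFE3, Foxo3 rose by 0.62 (adjusted p = 0.00361) and the calcineurin catalytic gene Ppp3ca by 0.31 (adjusted p = 0.0297), and the calcineurin subunit B gene Ppp3r1 had -0.33 (adjusted p = 0.0076). List medians were 0.13, -0.04, 0.08, 0.06 and 0.00 in the order given, beside -0.02 for all genes.

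Experiment 2 against experiment 1 compares mice of different strain tags, batches and experiments at once. In DCA libraries 38 of the 58 genes were called (65.5%), 21 higher and 17 lower in experiment 2, against 52.3% of all genes (28.1% higher, 24.1% lower). In untreated libraries 41 were called (70.7%), 19 higher and 22 lower, against 51.8% of all (26.7% higher, 25.2% lower). Called in both arms were 16 higher genes, which is 76.2% of the 21 in DCA libraries and 84.2% of the 19 in untreated ones, and 17 lower genes, which is every one of the 17 in DCA libraries and 77.3% of the 22 in untreated ones. Both arms come from the same mice. The median log2 fold change of all genes was 0.11 in both arms, and under cyclic loess -0.03 in DCA and -0.02 in untreated libraries, and the differences of single genes are to be read against these medians. The NK cell markers also moved with experiment, with a sum of 0.0504 to 1.15 CPM in experiment 2 and 5.93 to 14 CPM in experiment 1. Nearly all of it was Klrb1c, while Ncr1 did not exceed 0.156 CPM. Their part, and that of the number of detected genes, in the differences between experiments was not tested.

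Of the 5 Ragulator genes, 4 were called lower in experiment 2 in DCA libraries and 5 in untreated ones. Of all genes, 24.1% were lower with DCA and 25.2% untreated. Lamtor5 had 162, 164 and 178 CPM in DCA libraries of experiment 2, against 475, 472 and 454 CPM in those of experiment 1 (log2 fold change -1.47, SE 0.0655, edgeR adjusted p = 1.57e-10). Untreated libraries had 170.1, 191 and 182 CPM in experiment 2, against 432, 423 and 446 CPM in experiment 1 (-1.26, SE 0.0652, adjusted p = 6.48e-10). For Lamtor2 the log2 fold changes were -1.56 with DCA and -1.54 untreated, for Lamtor3 -1.22 and -1.34, and for Lamtor4 -0.36 and -0.42. Lamtor1 was called in untreated and not in DCA libraries (-0.15 with DCA, adjusted p = 0.107, and -0.38 untreated, adjusted p = 0.000559), and it shares 18.7% of its exon bases with Lrrc51. Under cyclic loess Lamtor1 and Lamtor4 lost their calls, and the differences of Lamtor2, Lamtor3 and Lamtor5 shrank to between -1.17 and -0.67.

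The proton pump was mixed. In V1, 2 of 10 genes were higher in each arm and 6 (DCA) or 7 (untreated) lower, with medians of -0.81 and -1.03. Beside this, 28.1% of all genes were higher and 24.1% lower with DCA, and 26.7% and 25.2% untreated. Atp6v1g1 had 253, 265 and 258 CPM in DCA libraries of experiment 2, against 713, 676 and 689.8 CPM in those of experiment 1 (log2 fold change -1.42, SE 0.06, edgeR adjusted p = 9.85e-11). Atp6v1f, Atp6v1d and Atp6v1c1 had -1.18, -1.27 and -1.07 in DCA libraries, and -1.19, -1.14 and -1.19 in untreated ones. Atp6v1a ran the other way with 0.45 in DCA and 0.77 in untreated libraries (adjusted p = 0.00506 and 7.39e-05), and so did Atp6v1h with 0.32 and 0.28 (adjusted p = 0.00682 and 0.015). In V0, Atp6v0e had 286, 271 and 306 CPM in DCA libraries of experiment 2, against 921, 913 and 927 CPM in experiment 1 (log2 fold change -1.68, SE 0.0653, adjusted p = 4.84e-11). Atp6v0a2 was higher, by 1.11 with DCA and 0.85 untreated (adjusted p = 2.49e-07 and 3.45e-06). Under cyclic loess the differences of the lower V1 and V0 genes were smaller, for example -1.03 with DCA and -0.95 untreated for Atp6v0e and -0.82 and -0.57 for Atp6v1g1, with the same sign.

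**Figure D4:**
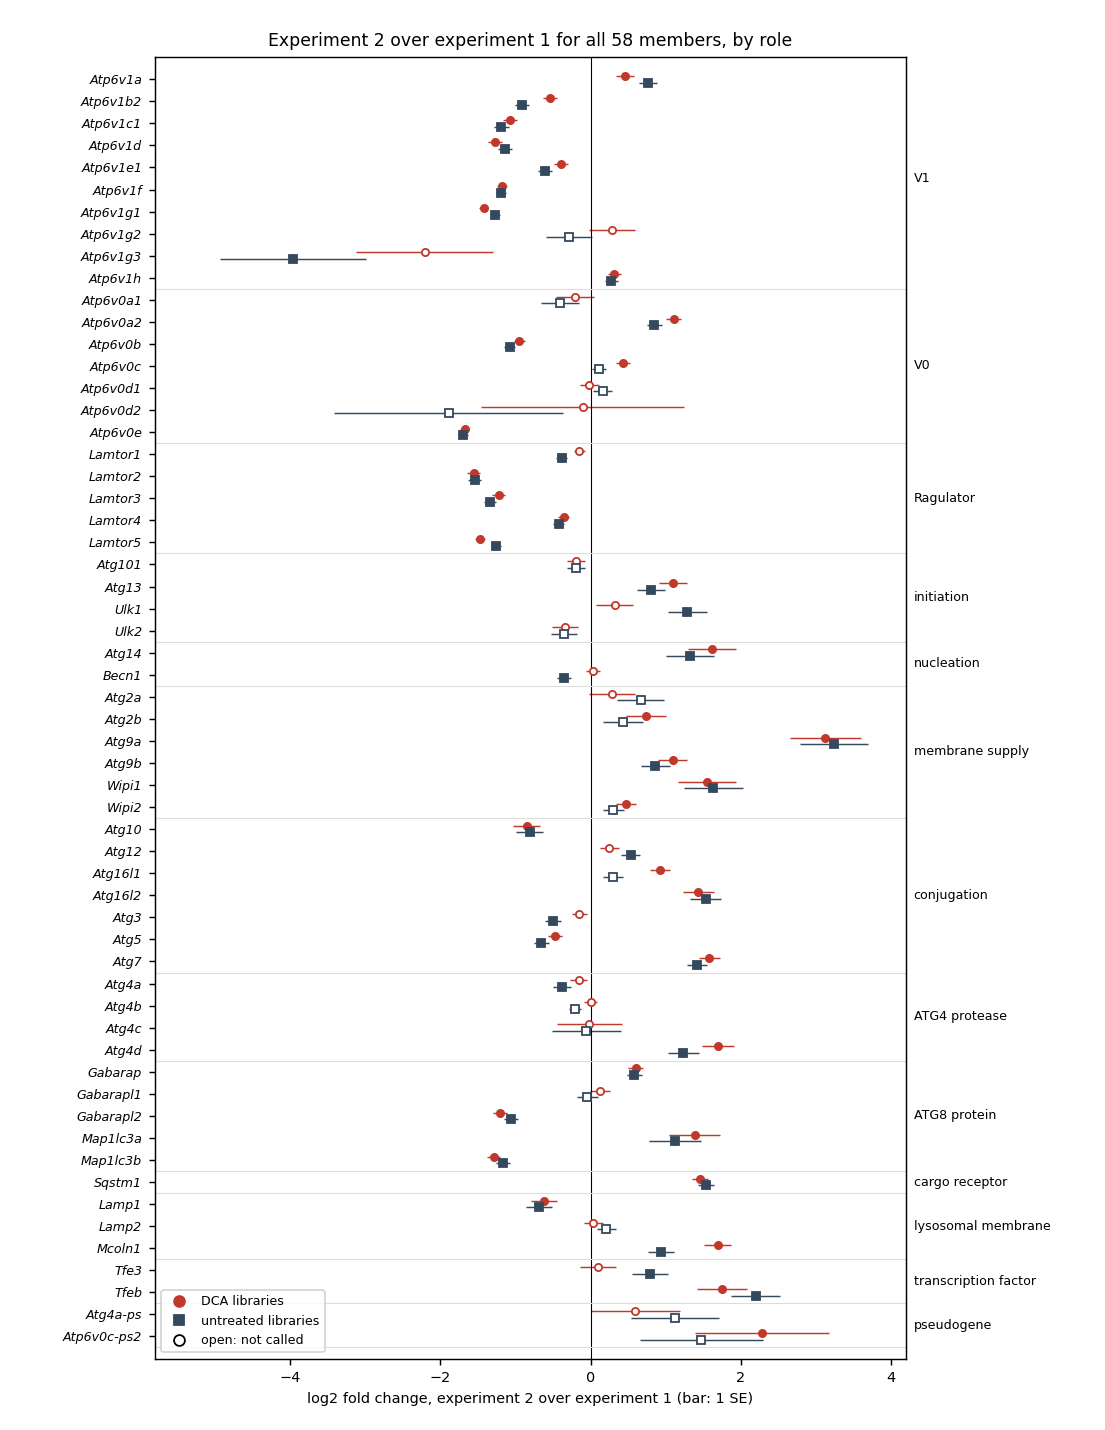
Log2 fold change of experiment 2 over experiment 1 (x axis) for each of the 58 genes by role (y axis) in DCA libraries (circle) and untreated libraries (square), filled where called (bar: 1 SE). The Ragulator genes all lie left of 0, and Sqstm1, Tfeb and the 6 membrane supply genes lie right of 0 in both arms.

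Of the 29 autophagy genes, Sqstm1 included, 14 were higher and 4 lower in experiment 2 with DCA, and 13 higher and 7 lower untreated. The shares of all genes were 28.1% higher and 24.1% lower with DCA, and 26.7% and 25.2% untreated. Called lower in both arms were, beside the ATG8 genes Gabarapl2 and Map1lc3b, Atg10 (-0.85 with DCA and -0.81 untreated) and Atg5 (-0.47 and -0.65). Sqstm1 had log2 fold changes of 1.45 in DCA libraries (SE 0.107, edgeR adjusted p = 2.8e-08) and 1.54 in untreated ones (adjusted p = 1.38e-08), where every library of experiment 2 lay above every library of experiment 1. Tfeb was higher by 1.75 with DCA and 2.20 untreated (adjusted p = 0.000409 and 5.38e-05), Mcoln1 by 1.70 and 0.94, Atg7 by 1.58 and 1.41, Atg4d by 1.69 and 1.23 and Atg16l2 by 1.43 and 1.53. Atg9a, at 3.13 and 3.24, differed by more than any other of the set in this direction, from levels under 1 CPM in experiment 1. The ATG8 genes changed in their order. Gabarap made up 55.3% of the ATG8 level per kb with DCA and 58.1% untreated in experiment 2, against 29.8% with DCA and 33.2% untreated in experiment 1. Gabarapl2 made up 20.4% and 20.1% in experiment 2, against 38.5% and 36% in experiment 1, and Map1lc3b 12.3% and 12.4%, against 24.7% and 23.7%. Log2 fold changes were 0.60 and 0.58 for Gabarap, -1.21 and -1.06 for Gabarapl2 and -1.29 and -1.16 for Map1lc3b.

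Gene length moved with this comparison in the set. Across the 58 genes the Spearman correlation of length with the log2 fold change of experiment 2 over experiment 1 was 0.379 in DCA and 0.38 in untreated libraries, against 0.038 and 0.0175 across all genes. The 7 genes under 1500 bases, which were Lamtor2, Lamtor4, Lamtor5, Atp6v1f, Atp6v1g1, Map1lc3a and the pseudogene Atp6v0c-ps2, had medians of -1.18 and -1.19, against -0.13 and -0.03 for all genes of that length. The part of length in the differences between experiments was not tested. For DCA over untreated, the same correlation across the 58 was -0.000277 over both experiments, and these are descriptions across genes, which share libraries.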

How the data were processed

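The authors deposited raw read counts, whole numbers for 56748 genes in 12 libraries. Their deposited comparison table holds a log2 fold change, a log2 CPM, a p-value and a false discovery rate for each gene. The deposited gene length came with that table. The submitters' processing notes name GRCm39 as the build and the tools edgeR 3.36.0, STAR 2.7.10a and fastp 0.23.2. Counter, annotation release and strand setting: not given in the sources used here. Per the labels, cDNA came from a SmartSeq kit after 15 cycles. All columns of per-library values were mapped (0 left out).

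The quasi-likelihood test of edgeR 4.0.16 (R 4.3.3) was run on these counts with TMM scaling. Low genes were removed by filterByExpr over the 4 groups, and p-values of the 15688 genes left were Benjamini-Hochberg adjusted with a threshold of 0.05. DCA over untreated had a term for experiment. Effects within an experiment, their difference and experiment 2 over experiment 1 were contrasts of 1 fit with 4 group means. The SE of a log2 fold change is its size over the root of the F statistic. Where no tool stands beside an adjusted p, it is edgeR's. Each group has 3 libraries. The fits were run on simulated counts with the same dispersion for every gene and no effect of mouse. That run checks the code and not the error rates in these libraries.

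Members, lists and tests were chosen with earlier results of these data known. Named were the called members, fixed members of each complex, up to 8 calls within an experiment, up to 5 per direction between experiments, and up to 3 genes per direction of each list by adjusted p, except genes that are not reported here. Symbols came from the authors' table. Exon lengths and overlaps came from GENCODE M21 (GRCm38), and the deposited length was within 10% of the exon length for 57 of 58 members.

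The same mouse gave both arms, so libraries are paired by design. Deviations from group means correlated at 0.0443 to 0.0834 for libraries of the same mouse and at -0.0689 to -0.00438 for different mice. Replicates differed beyond sampling noise (chi-square over degrees of freedom 10.8 to 29.8). Without molecular identifiers, the floor of 3 counts covers counting error only.

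Alternatives were RLE size factors, cyclic loess with limma 3.58.1, DESeq2 1.42.0, no filter (at least 1 count), 5 CPM in 3 libraries, the replicate block (mouse as a term), a fit without the experiment term and leaving out each library. limma with TMM scaling was added after seeing the data.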

Additional observations from a re-analysis of the deposited data

Results flagged for a closer look

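Among the genes of the 5 further lists (13, 39, 33, 49 and 8 tested), 2 had DCA effects that differed between the experiments by the test of the difference itself. None of the 58 described genes did, and of all genes 0.331% did (0.28% higher, 0.051% lower). The 2 genes are named because they passed that test. For Cln3, a lysosomal membrane protein gene, the difference was 0.96 on the log2 scale (SE 0.154, edgeR adjusted p = 0.0176), with an effect of 0.24 (adjusted p = 0.259) in experiment 2 and -0.72 (adjusted p = 0.000785) in experiment 1. For Fuca1, a lysosomal fucosidase gene, it was 0.58 (SE 0.107, edgeR adjusted p = 0.0358), with an effect of 0.40 (adjusted p = 0.00944) in experiment 2 and -0.17 (adjusted p = 0.138) in experiment 1. With a term per mouse the adjusted p of the difference was 0.0637 for Cln3 and 0.0969 for Fuca1. Leaving out 1 library at a time, it reached 0.146 for Cln3 and 0.244 for Fuca1, both without the DCA library of mouse 3 of experiment 2. Under the other settings it ranged from 8.57e-06 to 0.0339 for Cln3 and from 0.000387 to 0.0807 for Fuca1.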

How the results depend on the processing

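Of the 15 calls for DCA over untreated, Atg3, Atg4b, Atg4c, Atp6v0a2, Atp6v0c, Atp6v1b2, Atp6v1c1, Lamp2 and Map1lc3a held in all 19 alternatives other than the fit with no experiment term, and Atg16l2, Atg7, Gabarapl2, Lamtor3, Lamtor4 and Ulk2 were lost in some. With no filter on low counts the calls of Atg7, Gabarapl2, Lamtor3, Lamtor4 and Ulk2 were lost, while 2915 of all genes were called, against 2638 in the main fit. With no experiment term 0 of the 58 and 46 of all genes were called. With a replicate block (a term per mouse) 12 were called over both experiments (4 higher, 8 lower), 13 in experiment 1, 1 in experiment 2 (Atp6v1c1, adjusted p = 0.04) and 0 for the difference. Over all genes the block called 2094 over both experiments, 2349 in experiment 1 and 544 in experiment 2. Leaving out 1 library at a time gave 10 to 16 over both, 9 to 14 in experiment 1, 0 to 3 in experiment 2 and 0 to 1 for the difference. Those 10 came without the DCA library of mouse 1 of experiment 1, the 3 without the untreated library of mouse 1 of experiment 2, and the 1 for the difference without the DCA library of mouse 2 of experiment 1. In experiment 1 the count was 11 without the DCA library of mouse 2, and also without the DCA library of mouse 1 or 3 or the untreated library of mouse 2 of experiment 2. In experiment 2, RLE gave 1, DESeq2 7, no filter 3 and the 5 CPM filter 3. With 1 library left out, calls over all genes came to 1981 to 2588 over both experiments and 1759 to 2653 in experiment 1. Over all genes, calls in experiment 2 came to 717, against 1512 (DESeq2), 1116 (no filter) and 210 to 824 (1 library left out), and calls for the difference to 52, against 30 (cyclic loess), 458 (DESeq2), 566 (no filter), 24 (replicate block) and 1 to 217 (1 library left out). List counts moved for the proton pump partners (2, against 1 under cyclic loess, 4 under DESeq2, under the 5 CPM filter and under limma with TMM, and 2 to 4 with 1 library left out), the further autophagy genes (7, against 11 under the 5 CPM filter) and the hydrolases (9, against 14 under that filter). With no experiment term the lists gave 0, 0, 1, 1 and 0. No gene called over both experiments changed sign in that comparison. Uncalled ones that did were Atp6v0b (-0.00404 under RLE, -0.00438 under DESeq2, -0.0165 with no experiment term), Lamtor5 (-0.00924 under RLE, -0.00881 under DESeq2) and Atg10 (-0.0025 under RLE, -0.00249 under DESeq2, -0.0035 under the replicate block, -0.00467 under limma with TMM). Under cyclic loess Atp6v1e1 (0.0421), Atp6v1f (0.0689), Atp6v1g1 (0.0197), Atp6v0e (0.0378), Atg5 (0.0415) and Atg14 (-0.0841) did too, in experiment 2 Lamtor1 (0.0369), Ulk1 (-0.0818) and Mcoln1 (-0.0188), and in experiment 2 over experiment 1 untreated Becn1 (0.0519). With 1 library left out the sign changed over both experiments for Atp6v0b (-0.0108 to 0.0354), Atp6v0d1 (-0.0145 to 0.0676), Lamtor5 (-0.0189 to 0.0436), Atg14 (-0.107 to 0.231), Atg2b (-0.236 to 0.00952) and Atg10 (-0.0851 to 0.0704), and in experiment 2 for Gabarapl2 (-0.00199 to 0.172), Ulk1 (-0.149 to 0.142), Becn1 (-0.0333 to 0.0503) and Mcoln1 (-0.0767 to 0.083). For experiment 2 over experiment 1, all alternatives gave 35 to 39 calls with DCA and 37 to 43 untreated; no paired analysis was possible because each mouse belongs to 1 experiment. The cause of these changes was not tested. Genes near the floor of 3 counts, such as Atp6v0d2 and Atp6v1g3, carry wide errors.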

Other observations

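The lysosomal hydrolase and membrane genes, which were given above for DCA over untreated, also differed between the experiments. In DCA libraries 32 of the 49 were called higher and 5 lower in experiment 2 than in experiment 1, with a median log2 fold change of 0.845, against 28.1% of all genes higher and 24.1% lower. In untreated libraries 32 were higher and 7 lower, with a median of 0.703, against 26.7% and 25.2% of all genes. Smpd1, the acid sphingomyelinase gene, had 2.21 with DCA and 2.77 untreated (edgeR adjusted p = 1.17e-10 and 2.45e-11), Arsa, the arylsulfatase A gene, 1.64 and 1.80, and Man2b1, the acid mannosidase gene, 1.36 and 1.47. These 3 genes were chosen after their values were seen. Over the same comparison the 13 partners of the proton pump had 5 higher and 5 lower with DCA and 3 higher and 5 lower untreated.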
